A study of Mus musculus with 46 samples.

Results

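Oriens-lacunosum moleculare (OLM) interneurons are somatostatin-expressing GABAergic cells of the hippocampal stratum oriens, and only some of them carry transcripts of Pnoc, the gene of the opioid-related peptide precursor prepronociceptin. The cells described here were chosen by their own Pnoc level. Those with at least 10 Pnoc reads per 1000000 assigned reads (CPM) are called Pnoc-positive, and those below 10 CPM are called Pnoc-low. The Pnoc-positive side held 24 of the 46 cells sequenced, and the Pnoc-low side held the other 22. All were single neurons of mice at postnatal day 21 to 30, typed as OLM cells in the labels, with cytosol drawn into a patch pipette. Among Pnoc-positive cells, 14 came from the Htr3a-Cre driver line and 10 from the Sst-Cre driver line, against 9 and 13 among Pnoc-low cells. Htr3a encodes the ionotropic serotonin receptor subunit and Sst encodes somatostatin. The driver marks which cells were labelled for recording and not how a cell was treated, and no cell was treated or mutant. Each library is 1 cell and no animal is named, so cells may share an animal. For that reason the sides are described by levels and counts of cells, without any test or p-value. Cells are named by line and by a replicate number that follows the order of deposit.

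Prepronociceptin is cleaved to nociceptin, which acts on the receptor encoded by Oprl1, a receptor coupled to inhibitory G proteins. Neuropeptide Y, the product of Npy, is another co-transmitter of hippocampal interneurons and acts on receptors that also couple to inhibitory G proteins. OLM cells send their axon to the stratum lacunosum-moleculare, where entorhinal fibres reach the distal dendrites of pyramidal cells. Calbindin, reelin, Crhbp and the nicotinic subunit gene Chrna2 are among the genes used to tell somatostatin cells of the hippocampus apart.

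Pnoc, on chr14:65400673-65425472 of GRCm38, was the gene that chose the sides, so its levels are given as a description. Among Pnoc-positive cells it ranged from 15.1 to 1626 CPM with a median of 122 CPM. The median was 67.0 CPM in the 14 cells of the Htr3a line and 165 CPM in the 10 cells of the Sst line, and the ranges of the lines overlapped. Of the 22 Pnoc-low cells, 19 had no Pnoc read at all. The other 3 were Sst-line cells with 0.837, 1.35 and 1.61 CPM, which rest on 6, 21 and 27 reads. The lowest cells above the threshold were Htr3a-line replicates 13, 11 and 2, with 15.1, 20.5 and 21.1 CPM. No cell lay between 1.61 and 15.1 CPM, so any threshold in that gap gives the same sides.

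The driver-line mix differed in number but with wide intervals. Pnoc-positive cells made up 60.9% of the Htr3a line (14 of 23, exact Clopper-Pearson 95% interval 38.5 to 80.3%) and 43.5% of the Sst line (10 of 23, 23.2 to 65.5%). Read the other way, Sst-line cells were 41.7% of the Pnoc-positive side (22.1 to 63.4%) and 59.1% of the Pnoc-low side (36.4 to 79.3%). These intervals cover counting error only and overlap. Because the mix was uneven, differences were taken within each line as well as over both. Where a single difference is printed it is the one over both lines.

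Depth overlapped between the sides, and the number of genes detected differed most in the Htr3a line. Assigned reads ranged from 3391829 to 31386369 in Pnoc-positive cells and from 7168358 to 22689768 in Pnoc-low cells. Pnoc-positive cells had a median of 7468 genes with a read (4064 to 12693), against 6952 genes (3225 to 8725) in Pnoc-low cells. In the Htr3a line the medians were 8480.5 genes in Pnoc-positive cells and 6860 in Pnoc-low cells. In the Sst line they were 6538 genes in Pnoc-positive cells and 7044 in Pnoc-low cells, so the direction was opposite there. Thinning every cell to 3000000 reads kept both directions, with medians of 8095.5 genes in Pnoc-positive and 6656 in Pnoc-low cells of the Htr3a line, and 6216 genes in Pnoc-positive and 6550 in Pnoc-low cells of the Sst line. Of the Pnoc-positive cells, Htr3a-line replicates 4 and 20 stand apart, with 4 and 24 reads of the GABA-synthesis gene Gad1 and 4337 and 4064 genes detected. Replicate 20 is also the cell with the fewest reads and the most Pnoc.

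**Figure D1:**
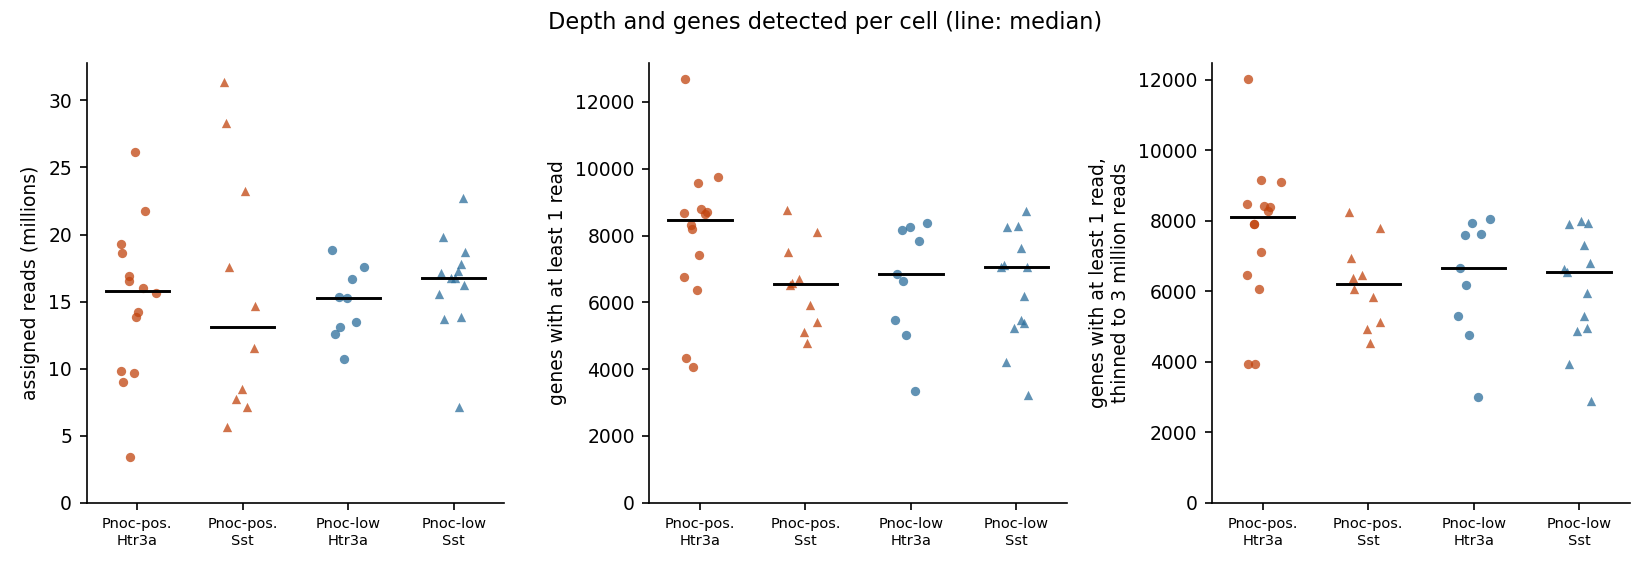
Assigned reads in units of 1000000 (left), genes with at least 1 read (middle) and the same after thinning to 3000000 reads (right), 1 point per cell, by side and driver line with the median as a bar. Htr3a-line cells on the Pnoc-positive side reach 12693 genes, while the 4 groups overlap in reads.

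The label of OLM cell was checked against genes known in that type, and the sides shared them. Sst, the defining transcript, had at least 10 CPM in all 24 Pnoc-positive and all 22 Pnoc-low cells, with a median of 15384 CPM (1274 to 85165) in Pnoc-positive cells and 9708 CPM (1726 to 103853) in Pnoc-low cells. Its mean log2(CPM + 1) differed by 0.39 (Pnoc-positive minus Pnoc-low), with -0.35 in the Htr3a line and 0.63 in the Sst line, so the lines went opposite ways. Crhbp, which encodes a binding protein of corticotropin-releasing hormone, had a median of 613 CPM in Pnoc-positive cells and 824 CPM in Pnoc-low cells, and was read in every cell of both sides. Reln, the gene of the secreted glycoprotein reelin, had a median of 704 CPM (119 to 2452) in Pnoc-positive cells and 648 CPM (0 to 1474) in Pnoc-low cells. All 24 Pnoc-positive cells and 20 of 22 Pnoc-low cells had at least 10 CPM of Reln. Chrna2, a nicotinic receptor subunit gene used as an OLM marker, was read in few cells. It reached 10 CPM in 7 of 24 Pnoc-positive cells and 3 of 22 Pnoc-low cells, and its difference was -0.01 in the Htr3a line and 2.45 in the Sst line. Elfn1, a postsynaptic adhesion gene of OLM cells, had 10 CPM in 10 of 24 Pnoc-positive and 8 of 22 Pnoc-low cells. Of the 7 identity genes with enough reads to compare, none but Npy was counted as different by the criterion given below.

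By the smaller of the line differences in mean log2(CPM + 1), Npy set the sides apart more than any other gene compared. Npy lies on chr6:49822710-49829507, on another chromosome than Pnoc. In Pnoc-positive cells its lowest, median and highest levels were 0, 16.7 and 10637 CPM, against 0, 1643 and 11796 CPM in Pnoc-low cells. At least 1000 CPM of Npy was present in 1 of 24 Pnoc-positive cells and in 14 of 22 Pnoc-low cells. The single exception on the Pnoc-positive side was Sst-line replicate 14, and the next highest Pnoc-positive cell had 206 CPM. Of the Pnoc-low cells, 17 of 22 lay above that level. The mean log2(CPM + 1) of Npy was 3.82 ± 3.62 (SD, n = 24) in Pnoc-positive cells and 8.95 ± 4.09 (SD, n = 22) in Pnoc-low cells, a difference of -5.13. It was lower in Pnoc-positive cells within both lines, with differences of -5.78 in the Htr3a line and -4.81 in the Sst line. In the Htr3a line the medians of Npy were 22.2 CPM in Pnoc-positive cells and 2563 CPM in Pnoc-low cells. In the Sst line they were 9.64 CPM in Pnoc-positive cells and 1017 CPM in Pnoc-low cells. The log2 ratio of CPM summed over each side was -3.38 with Sst-line replicate 14 and -5.37 without it.

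The peptide genes were not exclusive of each other in single cells. With 10 CPM as the level for both, 14 cells had Pnoc and Npy, 10 had Pnoc without Npy, 19 had Npy without Pnoc and 3 had neither. Each class held cells of both lines. Most cells with both peptides had moderate Npy: in 13 of the 14 it lay between 12.7 and 206 CPM. Sst-line replicate 14 was the one cell with high levels of both, at 146 CPM of Pnoc from 824 reads and 10637 CPM of Npy from 59988 reads. On the Pnoc-low side, 4 cells had under 100 CPM of Npy. These were Sst-line replicates 22 and 16 with no Npy read, Htr3a-line replicate 23 with 1 read, and Sst-line replicate 2 with 54.2 CPM. In counts of cells, 58.3% of Pnoc-positive cells (exact 95% interval 36.6 to 77.9%) and 86.4% of Pnoc-low cells (65.1 to 97.1%) reached 10 CPM of Npy, so the difference between the sides lay more in the level than in the presence of the transcript.

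**Figure D2:**
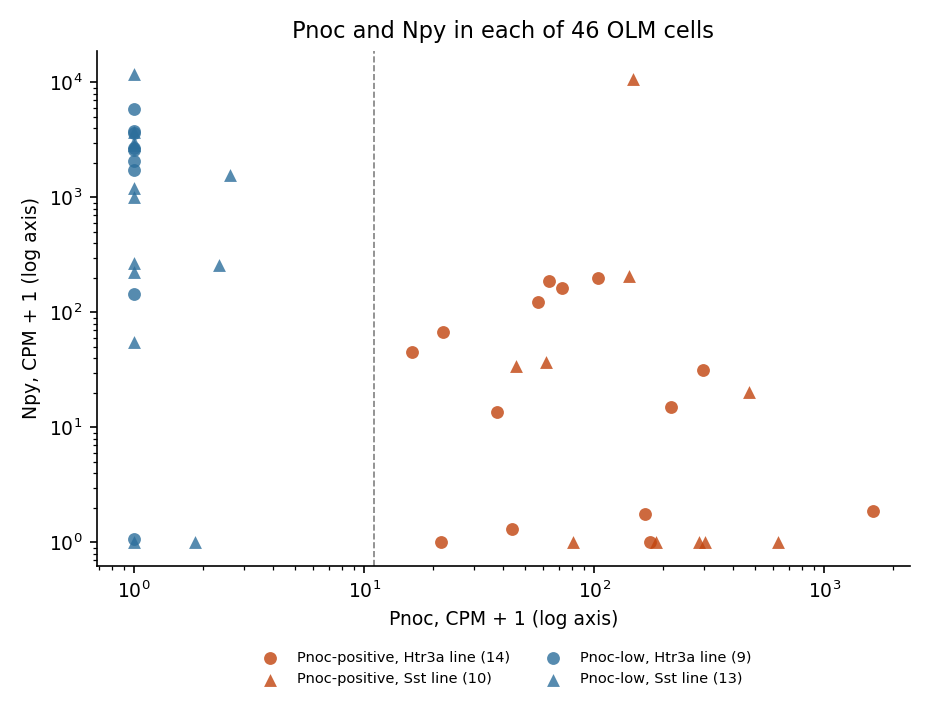
Pnoc (horizontal) against Npy (vertical) in each cell, both as CPM + 1 on log axes, with the dashed line at the 10 CPM threshold. Above 1000 CPM of Npy there are 14 Pnoc-low cells and 1 Pnoc-positive cell, Sst-line replicate 14.

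The rest of the nociceptin and opioid system showed no difference of that kind. Oprl1, the nociceptin receptor gene, had a median of 21.4 CPM (0 to 161) in Pnoc-positive cells and 29.3 CPM (0 to 387) in Pnoc-low cells. At least 10 CPM was present in 14 of 24 Pnoc-positive and 12 of 22 Pnoc-low cells, and the difference was 0.11, with 0.18 in the Htr3a line and -0.16 in the Sst line. The delta and kappa opioid receptor genes Oprd1 and Oprk1 were each read in 7 of 24 Pnoc-positive cells, against 7 and 10 of 22 Pnoc-low cells. Oprd1 differed by -0.74, with -1.34 in the Htr3a line and -0.12 in the Sst line. Oprk1 differed by -0.82, with -1.37 in the Htr3a line and -0.04 in the Sst line, so both lay near 0 in the Sst line. The other opioid precursor genes were rare on both sides. Penk was read in 4 Pnoc-positive and 3 Pnoc-low cells, and Pomc in 4 Pnoc-positive and 5 Pnoc-low cells. Pdyn was read in 1 Pnoc-positive and 2 Pnoc-low cells, and the mu receptor gene Oprm1 in 2 Pnoc-positive cells and 1 Pnoc-low cell. At these numbers of cells no difference between the sides could be described for them.

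In comparison with Npy, the other peptide genes that could be compared and the granule machinery differed little. Of 19 neuropeptide genes listed, 3 were compared, which were Npy, Sst and Cort. Cort, which encodes the somatostatin-related peptide cortistatin, was read in 10 Pnoc-positive and 6 Pnoc-low cells, with a difference of 0.09. Npy1r, the Y1 receptor gene, was read in 9 Pnoc-positive cells and 3 Pnoc-low cells, with a difference of 1.10. It was not counted, at 1.05 in the Htr3a line and 0.95 in the Sst line. Of 15 tested genes of prohormone processing and dense-core granules, 13 had a positive difference and none was counted as different in both lines. Their median difference was 0.39, against 0.21 over all genes compared. The granule genes with the largest differences, Scg3 (secretogranin III) and Ptprn2, each went with 1 line. Scg3 differed by 1.83, with 0.51 in the Htr3a line and 3.004 in the Sst line, and Ptprn2 differed by 1.58, with 3.01 in the Htr3a line and -0.07 in the Sst line.

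To find genes that went with Pnoc in both lines, the difference in mean log2(CPM + 1) was taken for 10003 genes other than Pnoc with reads in at least 12 cells. A gene was counted as higher or lower when it differed by at least 1 on this scale in the same direction within each line. By that criterion 588 genes (5.88% of those compared) were higher in Pnoc-positive cells and 187 (1.87%) were lower. The sides also went opposite ways in the lines for many genes. A total of 473 genes (4.73%) were higher in the Htr3a line and lower in the Sst line, and 161 (1.61%) showed the reverse, each by at least 1. The 775 genes with 1 direction in both lines thus stood against 634 with opposite directions, and the correlation of the line differences across genes, which are not independent, was 0.04. At larger sizes the shared direction was more frequent. Past 2, 59 genes shared the direction and 33 did not, past 2.5 the numbers were 14 and 4, and past 3 they were 3 and 0.

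Since the genes with opposite directions were nearly as many, only the far end and the lists are described gene by gene. The split between higher and lower genes moved with the setting. With genes detected and driver line as covariates, 296 genes were higher and 406 were lower, and in the cells with 4000 to 9000 genes detected, a subset chosen after the data were seen, 382 were higher and 377 lower. Without Htr3a-line replicates 4 and 20, 859 genes were higher and 128 lower, and the median over all genes was 0.37 in place of 0.21. The 12 highest and 12 lowest genes named next were all still counted in each of these 3 settings. They were chosen for the size of these same differences, so being counted again in largely the same cells is not independent support.

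**Figure D3:**
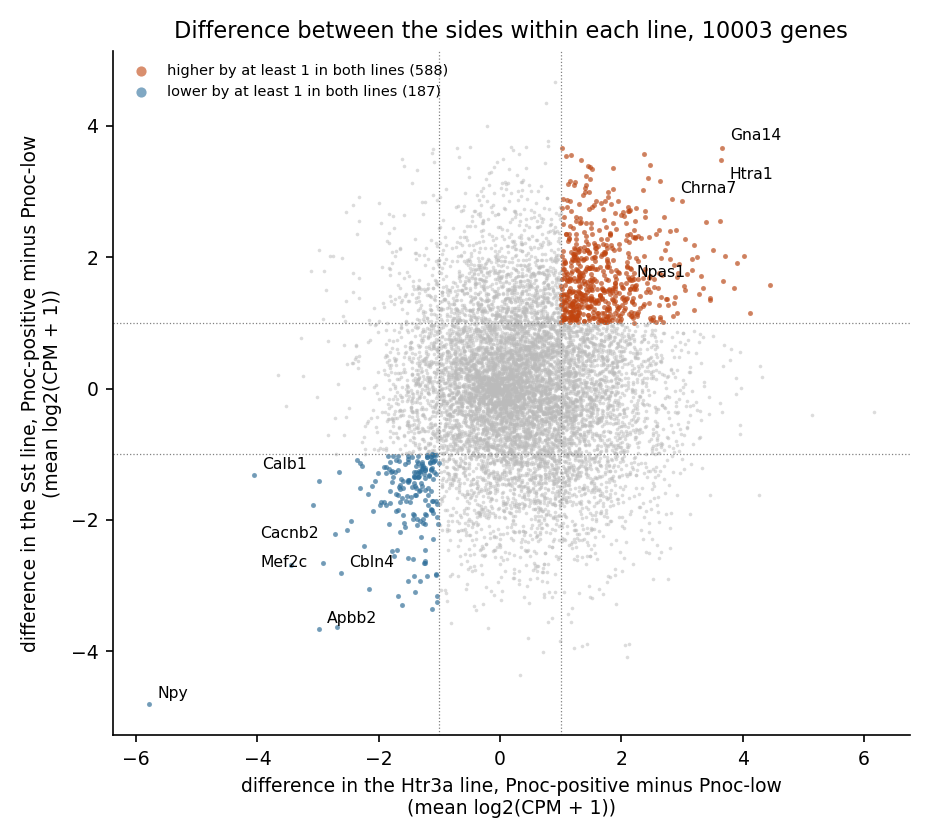
Difference in mean log2(CPM + 1), Pnoc-positive minus Pnoc-low, in the Htr3a line (horizontal) and the Sst line (vertical) for 10003 genes, with the 588 higher and 187 lower genes in colour. Npy lies at -5.78 and -4.81, and Gna14 and Htra1 lie at the upper right.

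The 12 genes farthest on the higher side are given first, grouped by known role for reading only, since no list of these roles was counted. Gna14, which encodes an alpha subunit of the Gq family of G proteins, had a median of 94.2 CPM (0 to 480) in Pnoc-positive cells and 0 CPM (0 to 154) in Pnoc-low cells. It reached 10 CPM in 18 of 24 Pnoc-positive cells and 5 of 22 Pnoc-low cells. Its difference was 3.54, with 3.65 in the Htr3a line and 3.66 in the Sst line, so cells of both lines had it mostly on the Pnoc-positive side. Chrna7, the gene of the alpha7 nicotinic acetylcholine receptor, had a median of 101 CPM (0 to 602) in Pnoc-positive cells and 0.0292 CPM (0 to 374) in Pnoc-low cells. At least 10 CPM of Chrna7 was present in 16 of 24 Pnoc-positive and 7 of 22 Pnoc-low cells, and the difference was 2.88, with 2.83 in the Htr3a line and 2.89 in the Sst line. Chrna7 was the sole gene counted among the 6 acetylcholine receptor genes compared, whose median difference was 0.40, beside 5.88% of all genes counted higher.

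Of the list of inhibitory G protein signalling, 2 genes were counted. Gng2, a G protein gamma subunit gene, had a median of 376 CPM (1.42 to 1964) in Pnoc-positive cells and 170 CPM (0 to 663) in Pnoc-low cells, with a difference of 2.53. Of the exonic length of Gng2, 20.4% overlaps a predicted gene on the other strand, so some of its reads may belong there. Rgs8, which speeds the shut-off of G proteins, had a median of 37.4 CPM (0 to 241) in Pnoc-positive cells and 0.514 CPM (0 to 187) in Pnoc-low cells, with a difference of 1.88. It was not counted when Pnoc-positive meant at least 50 CPM of Pnoc or at least 1 Pnoc read, with 0.47 in the Htr3a line in the first case and 0.27 in the Sst line in the second. Of 17 genes of this inhibitory signalling list, Gng2 and Rgs8 were counted higher and none lower, with a median of 0.34, beside 5.88% of all genes higher and 1.87% lower.

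Of the other highest genes, Htra1 and Matn2 encode secreted proteins, and 4 act on proteins or glycans along the secretory path. Htra1, a secreted serine protease gene, had a median of 59.9 CPM (0 to 332) in Pnoc-positive cells and 0 CPM (0 to 300) in Pnoc-low cells. In 20 of 24 Pnoc-positive and 5 of 22 Pnoc-low cells it reached 10 CPM, and its difference of 3.60 held at 3.64 in the Htr3a line and 3.48 in the Sst line. Matn2, the gene of the matrix protein matrilin-2, had medians of 67.1 CPM (0 to 700) in Pnoc-positive cells and 0.966 CPM (0 to 249) in Pnoc-low cells, with a difference of 2.43. Hs6st2, which adds sulfate to heparan chains, reached 10 CPM in 17 of 24 Pnoc-positive cells and 6 of 22 Pnoc-low cells, with a difference of 3.08. Qpct, the glutaminyl cyclase that closes the first residue of some peptides to pyroglutamate, reached 10 CPM in 22 of 24 Pnoc-positive and 13 of 22 Pnoc-low cells. Its median was 179 CPM (0 to 599) in Pnoc-positive cells and 57.1 CPM (0 to 203) in Pnoc-low cells, with a difference of 2.66. Galnt11, which starts O-linked glycosylation, differed by 2.61. Its log2 ratio of summed CPM was 0.73, and its highest level was 379 CPM in Pnoc-positive cells and 647 CPM in Pnoc-low cells. Mia3, which helps large cargo leave the endoplasmic reticulum, differed by 2.45 and had at least 10 CPM in 21 of 24 Pnoc-positive and 11 of 22 Pnoc-low cells. For Mia3 the log2 ratio of summed CPM was only 0.39, so the sides differed in the number of cells with reads more than in the total.

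The remaining highest genes act inside the cell. Gatsl2, now named Castor2 and related to an arginine sensor upstream of the growth kinase complex mTORC1, reached 10 CPM in 19 of 24 Pnoc-positive and 7 of 22 Pnoc-low cells, with a difference of 2.87. Cluh, which binds messenger RNAs of mitochondrial proteins, reached it in 15 of 24 Pnoc-positive and 4 of 22 Pnoc-low cells, with a difference of 2.98. Trim27, a ubiquitin ligase gene, reached it in 15 of 24 Pnoc-positive and 5 of 22 Pnoc-low cells, with a difference of 2.77. All of these genes were absent from some Pnoc-positive cells and present in some Pnoc-low cells, so none separated the sides. Ccdc28a, a coiled-coil gene, reached 10 CPM in 19 of 24 Pnoc-positive and 7 of 22 Pnoc-low cells, and its difference was 2.71. Its log2 ratio of summed CPM was 0.74, and its highest level was 316 CPM in Pnoc-positive cells and 422 CPM in Pnoc-low cells. With the threshold raised to 50 CPM of Pnoc, Gatsl2 was no longer counted, at 0.64 in the Htr3a line.

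**Figure D4:**
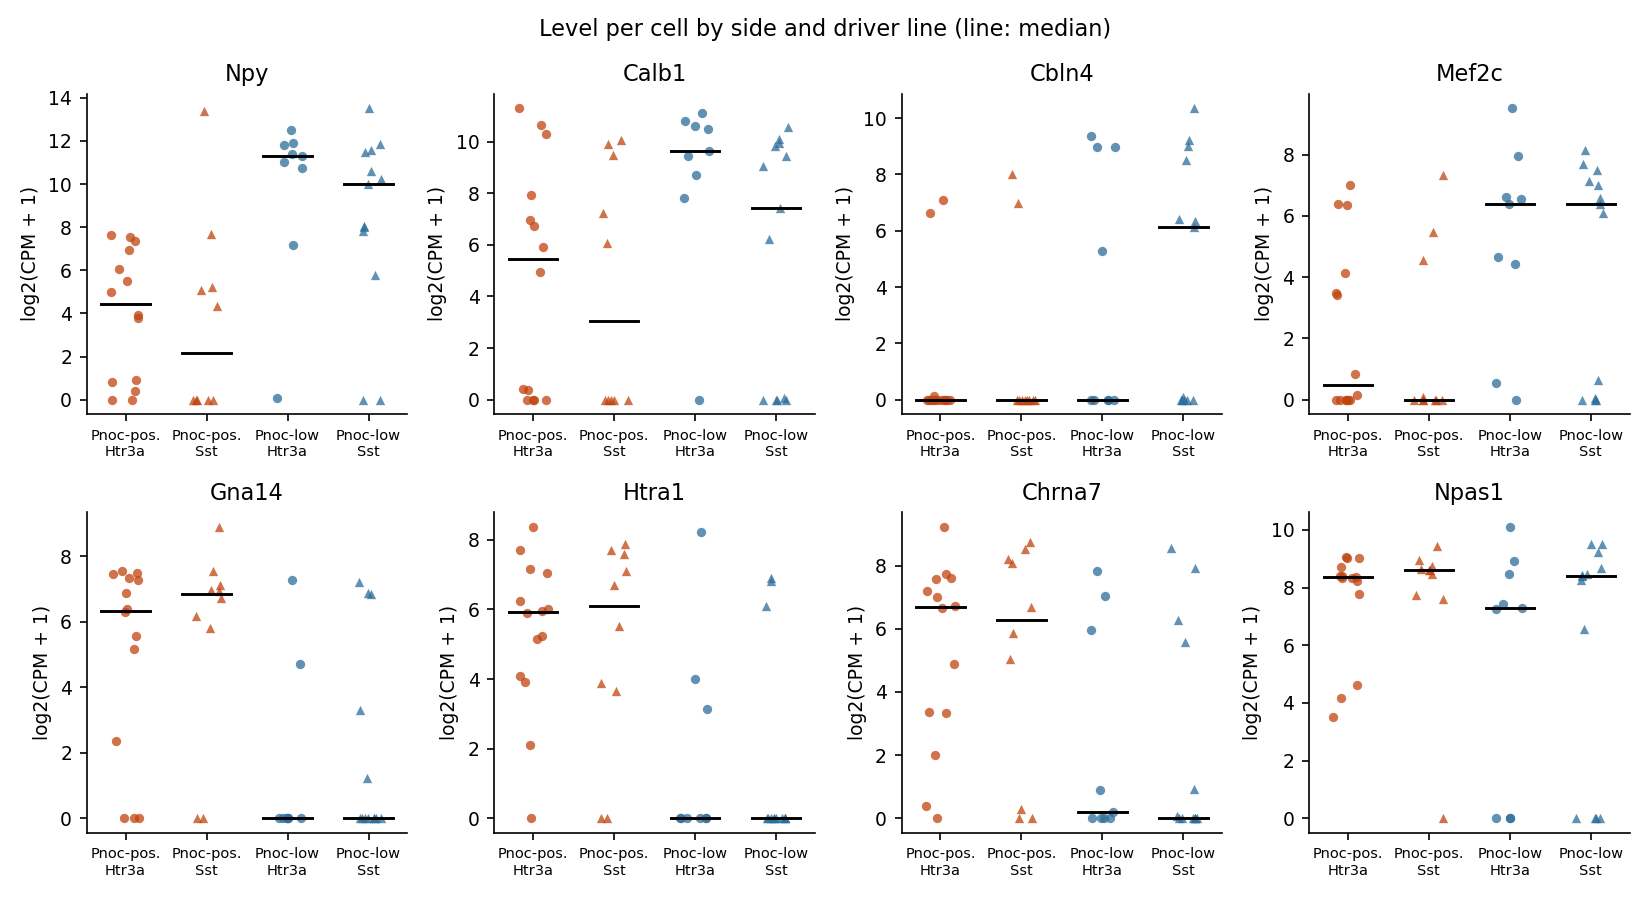
Log2(CPM + 1) of 8 genes in each cell, by side and driver line, with the median as a bar. Npy, Calb1, Cbln4 and Mef2c are mostly lower and Gna14, Htra1 and Chrna7 mostly higher in Pnoc-positive cells, with overlap in every gene. Npas1 differs mainly in the number of cells with reads.

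The 12 lowest genes included, after Npy, the synaptic organiser Cbln4, the transcription factor gene Mef2c and the calcium channel gene Cacnb2. Calb1 and Cacna1g, also described below, were counted as members of their lists and are not among these 12. Cbln4, a secreted cerebellin that binds neurexins at synapses, had a median of 0 CPM (0 to 254) in Pnoc-positive cells and 19.1 CPM (0 to 1308) in Pnoc-low cells. It reached 10 CPM in 4 of 24 Pnoc-positive and 11 of 22 Pnoc-low cells, and at least 200 CPM in 1 of 24 Pnoc-positive and 7 of 22 Pnoc-low cells. Its difference was -2.83, with -2.63 in the Htr3a line and -2.81 in the Sst line. Of 16 genes of neurexins, neuroligins and their partners, Cbln4 was the one counted lower, and Nlgn3 was counted higher, beside 1.87% of all genes lower and 5.88% higher. Nlgn3 shares 41.8% of its 31-base words with other transcripts, so its reads could be split between genes. It was not counted without Htr3a-line replicate 12, when its Htr3a-line difference was 0.92. Nor was it with any Pnoc read counted as positive (0.42 in the Sst line), with Pnoc at 50 CPM (0.01 in the Htr3a line) or with genes detected and line as covariates (0.34 in the Htr3a line). Mef2c, a transcription factor gene of neurons and also of microglia, had a median of 0.0284 CPM (0 to 161) in Pnoc-positive cells and 82.7 CPM (0 to 733) in Pnoc-low cells. At least 10 CPM of Mef2c was found in 8 of 24 Pnoc-positive and 15 of 22 Pnoc-low cells, and the difference was -2.67. In the cells with under 1000 CPM of microglial genes in all, a subset chosen after the data were seen, Mef2c was still counted lower. Those cells can still hold microglial RNA, and its part in the Mef2c level was not tested.

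Calb1, the gene of the calcium buffer calbindin and a marker used to divide hippocampal somatostatin cells, had a median of 44.9 CPM (0 to 2521) in Pnoc-positive cells and 609 CPM (0 to 2219) in Pnoc-low cells. In 13 of 24 Pnoc-positive and 16 of 22 Pnoc-low cells it reached 10 CPM. The difference of -2.36 was made of -4.05 in the Htr3a line and -1.31 in the Sst line. In the Htr3a line 8 of 14 Pnoc-positive and 8 of 9 Pnoc-low cells had 10 CPM of Calb1. The Sst-line part was close to the limit: leaving out 1 cell, any of replicates 3, 4, 9, 12, 13, 17, 18, 19, 21 and 23 of the Sst line, took it below 1 in size, and the least was -0.84. With the threshold at 50 CPM of Pnoc it was -0.44, and in cells with 4000 to 9000 genes detected it was -0.95, so Calb1 was not counted in either case. Cacnb2, an auxiliary subunit gene of voltage-gated calcium channels, reached 10 CPM in 3 of 24 Pnoc-positive and 11 of 22 Pnoc-low cells. Its median was 0 CPM (0 to 94.0) in Pnoc-positive cells and 10.5 CPM (0 to 150) in Pnoc-low cells, with a difference of -2.22. With any Pnoc read counted as positive, its Sst-line difference was -0.79 and it was not counted. Of 11 calcium channel genes, Cacnb2 and the T-type channel gene Cacna1g were lower and none was higher, with a median of -0.24. The shares over all genes compared were 1.87% lower and 5.88% higher, which is the measure for this and the other list counts. Cacna1g lay near the limit, at -1.14 in the Htr3a line and -1.22 in the Sst line. It was not counted without any 1 of 16 cells, which were Htr3a-line replicates 3, 8, 9, 12, 16, 19, 22 and 23 and Sst-line replicates 3, 4, 10, 14, 18, 19, 21 and 23. Without 1 of them its line differences lay as near 0 as -0.67 in the Htr3a line and -0.89 in the Sst line. In cells with under 1000 CPM of microglial genes Cacna1g was not counted, at -0.46 in the Htr3a line and -0.44 in the Sst line.

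The other genes among the 12 lowest have roles in membranes and traffic, lipid signals and transcription. Apbb2, an adaptor that binds the amyloid precursor protein, reached 10 CPM in 4 of 24 Pnoc-positive and 14 of 22 Pnoc-low cells, with medians of 0 CPM (0 to 250) in Pnoc-positive cells and 79.9 CPM (0 to 669) in Pnoc-low cells. Its difference was -3.17, with -2.99 in the Htr3a line and -3.66 in the Sst line. Atp9b, a member of the P4 family of membrane ATPases, reached 10 CPM in 5 of 24 Pnoc-positive and 13 of 22 Pnoc-low cells, and its difference was -2.93. Tmem44, a membrane protein gene, had the same numbers of cells, with medians of 0 CPM (0 to 52.8) in Pnoc-positive cells and 93.6 CPM (0 to 312) in Pnoc-low cells and a difference of -3.14. The median over Pnoc-positive cells was thus 0 CPM for Apbb2 and Tmem44, as it was for Atp9b. Mtmr3, a phosphoinositide phosphatase gene, differed by -2.15, Lppr3 (now Plppr3), related to phospholipid phosphatases, by -2.43, and Arf2, a small GTPase gene of vesicle traffic, by -1.91. With the threshold at 50 CPM of Pnoc these 3 were not counted, with Htr3a-line differences of -0.66 for Mtmr3, 0.06 for Lppr3 and -0.92 for Arf2. Arf2 was also not counted with any Pnoc read taken as positive, at -0.13 in the Sst line. Camkmt, which methylates calmodulin, differed by -1.97. Rfx5, a transcription factor gene of MHC class II genes, differed by -2.69. Of the exonic length of Rfx5, 26.8% overlaps a gene on the other strand, so its reads cannot be told apart there.

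**Figure D5:**
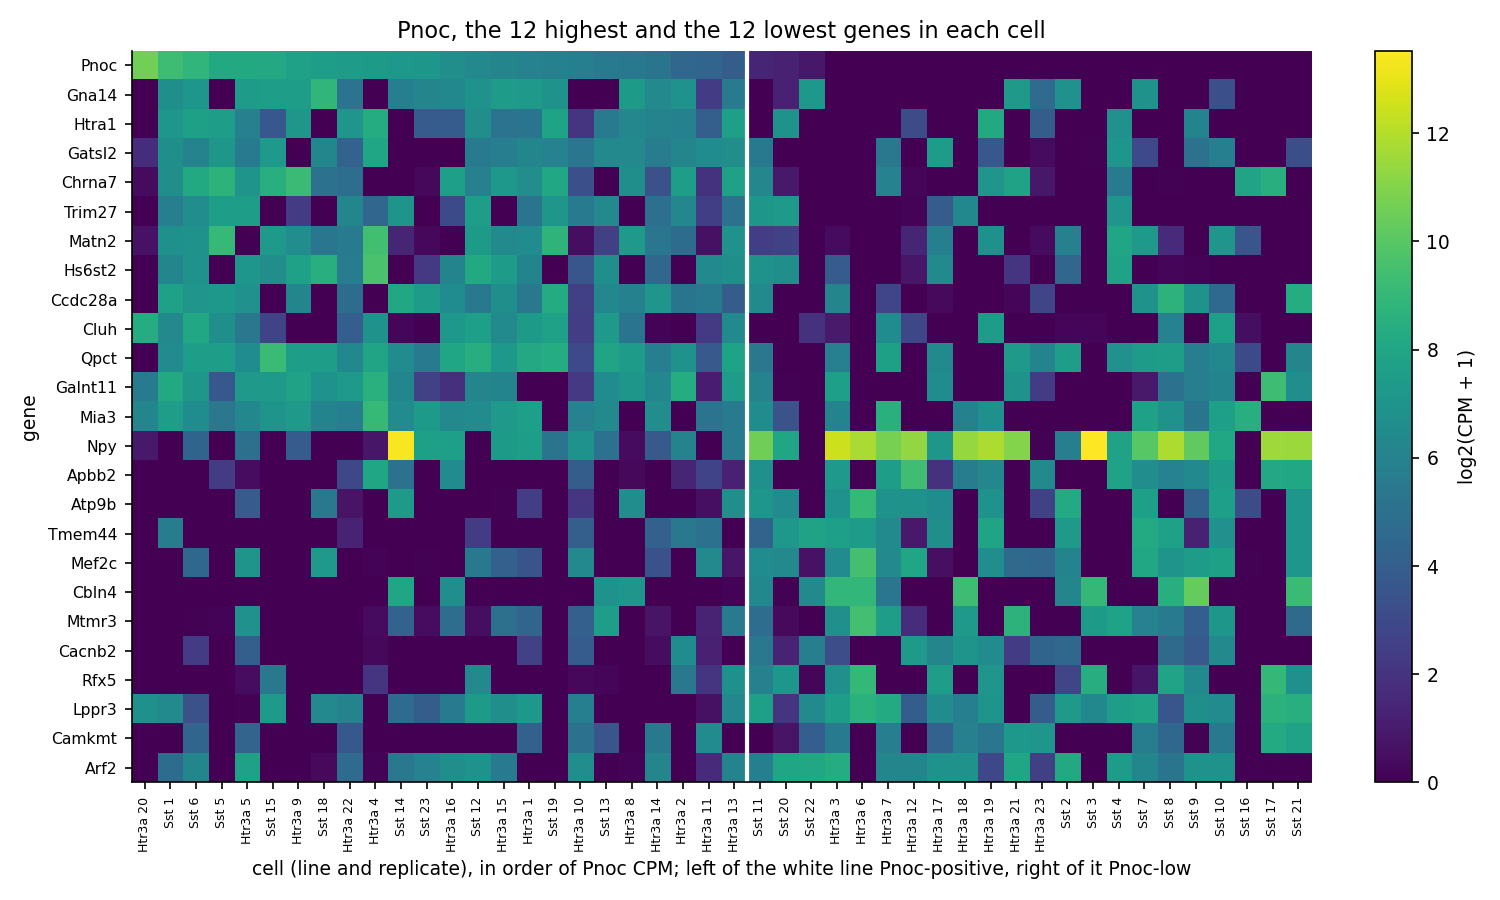
Log2(CPM + 1) of Pnoc, the 12 highest and the 12 lowest genes (rows) in each cell (columns), ordered by Pnoc level, with Pnoc-positive cells left of the white line. Every gene but Pnoc has cells with and without reads on both sides.

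Lineage genes were shared apart from Npas1 and Dlx1. Npas1, a transcription factor gene of forebrain interneurons, had a median of 339 CPM (0 to 701) in Pnoc-positive cells and 237 CPM (0 to 1109) in Pnoc-low cells. It was read in 23 of 24 Pnoc-positive and 15 of 22 Pnoc-low cells, and its difference was 1.87, with 2.08 in the Htr3a line and 1.76 in the Sst line. The log2 ratio of its summed CPM was only 0.38, so the sides differed in cells with reads more than in the total. The 8 cells with no Npas1 read were 1 Pnoc-positive and 7 Pnoc-low cells, and in the 38 cells with reads it ranged from 10.3 to 1109 CPM with a median of 346 CPM. Lhx6, a marker of the medial ganglionic eminence from which somatostatin cells arise, differed by 0.73 and was not counted. Of 6 genes of that lineage, Npas1 alone was counted, and of 3 tested genes of the caudal ganglionic eminence none was. Dlx1, a homeobox gene of GABAergic neurons, had a median of 25.6 CPM (0 to 99.8) in Pnoc-positive cells and 66.6 CPM (0 to 312) in Pnoc-low cells, with a difference of -1.48. Without Htr3a-line replicates 4 and 20 its Htr3a-line difference was -0.77 and it was not counted. Gad1 had a median of 936 CPM in Pnoc-positive cells and 1363 CPM in Pnoc-low cells and was not counted. It differed by -1.67 in the Htr3a line, which holds those same 2 cells, and by -0.34 in the Sst line. Of the 10 GABAergic genes tested, 5 had positive and 5 had negative differences, with a median of -0.15. Dlx1 alone of that list was counted.

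Several other neuronal gene groups held no gene counted in both lines. This was so for 16 ionotropic and 5 metabotropic glutamate receptor genes, 8 sodium channel genes, 21 potassium channel genes, 2 serotonin receptor genes, 8 trophic and ErbB receptor genes and 13 immediate early genes. Their median differences lay between -0.38 for the serotonin receptors and 0.38 for the trophic receptors, beside 0.21 over all genes compared. The 30 ribosomal protein genes and the 13 mitochondrially encoded genes also had none, with medians of 0.10 and 0.09. In some genes the difference lay mostly in 1 line. Grm5, a metabotropic glutamate receptor gene, differed by -0.09 in the Htr3a line and -2.46 in the Sst line. Fgf13, a partner of sodium channels, differed by -0.06 in the Htr3a line and 3.45 in the Sst line. Of other lists, Gnai3, an inhibitory G protein alpha subunit gene, differed by 3.95 in the Htr3a line and -0.55 in the Sst line. Pvalb, the parvalbumin gene, reached 10 CPM in 3 of 24 Pnoc-positive and 10 of 22 Pnoc-low cells, with -0.24 in the Htr3a line and -2.54 in the Sst line.

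Of 20 synaptic vesicle release genes, Stx1a was counted higher and Syt4 lower, with a list median of -0.25. Stx1a, a plasma membrane SNARE gene, had medians of 33.6 CPM (0 to 177) in Pnoc-positive cells and 4.89 CPM (0 to 165) in Pnoc-low cells and differed by 1.16 in each line. It was not counted without any 1 of 20 cells, which were Htr3a-line replicates 2, 3, 6, 7, 9, 12, 14, 21 and 22 and Sst-line replicates 1, 3, 4, 6, 7, 12, 13, 17, 18, 20 and 21. Its line differences were then as low as 0.86 in the Htr3a line and 0.76 in the Sst line. Syt4, a synaptotagmin gene named here after its values were seen, had medians of 68.8 CPM (0 to 340) in Pnoc-positive cells and 177 CPM (0 to 959) in Pnoc-low cells. Its difference was -1.38 in the Htr3a line and -1.17 in the Sst line, but -0.90 over both. Of 13 heat shock and stress genes, the transcription factor gene Atf3 was counted higher, at 1.25 in the Htr3a line and 2.56 in the Sst line. It reached 10 CPM in 12 of 24 Pnoc-positive and 5 of 22 Pnoc-low cells, and was not counted without Htr3a-line replicate 2, 5, 11 or 14, at an Htr3a-line difference as low as 0.69. The log2 ratio of summed CPM of Atf3 was 0.42, and -0.24 without Htr3a-line replicate 5. Cnr1, the cannabinoid receptor gene CB1 known from other interneurons, had a median of 121 CPM (6.74 to 583) in Pnoc-positive cells and 58.0 CPM (0 to 461) in Pnoc-low cells, with a difference of 1.81. Without Htr3a-line replicate 18 or 21 it was not counted, at an Htr3a-line difference as low as 0.93. With the threshold at 50 CPM of Pnoc none of these 3 higher genes was counted, with Htr3a-line differences of 0.08 for Stx1a, -0.33 for Atf3 and 0.48 for Cnr1.

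Markers of other cells were present on both sides, and those of microglia and oligodendrocytes had lower median sums in Pnoc-positive cells. CPM summed over 9 microglial genes had a median of 275 CPM (0 to 8627) in Pnoc-positive cells and 943 CPM (0.0536 to 10876) in Pnoc-low cells. At least 100 CPM was present in 16 of 24 Pnoc-positive and 18 of 22 Pnoc-low cells. Of the 9 genes, 8 had negative differences, and the receptor gene Csf1r was counted higher, at 2.27 in the Htr3a line and 1.67 in the Sst line. Csf1r was not counted at 50 CPM of Pnoc, with 0.48 in the Htr3a line, and 15.1% of its exonic length overlaps a gene on the other strand. Its log2 ratio of summed CPM was 0.37, and -0.20 without Htr3a-line replicate 5, so its total level did not hold a direction. C1qb, a complement gene, had a median of 36.4 CPM in Pnoc-positive cells and 233 CPM in Pnoc-low cells. The part of microglial RNA in the results was not tested. In the 16 Pnoc-positive and 12 Pnoc-low cells with under 1000 CPM of microglial genes, a subset also chosen after the data were seen, 11 of the 12 highest and 11 of the 12 lowest genes were still counted, and Npy differed by -6.97. The genes that dropped out there were Ccdc28a, at 0.08 in the Sst line, and Arf2, at 0.30 in the Sst line. As the genes were picked by size of difference in a set that includes these cells, this is a description only.

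Oligodendrocyte genes had a median sum of 104 CPM (0.144 to 13314) in Pnoc-positive cells and 284 CPM (1.98 to 7114) in Pnoc-low cells. At least 100 CPM was present in 12 of 24 Pnoc-positive and 18 of 22 Pnoc-low cells. Of the 4 oligodendrocyte genes tested, 2 had positive and 2 had negative differences, with a median of -0.18. Mbp, the myelin basic protein gene, had a median of 33.7 CPM in Pnoc-positive cells and 166 CPM in Pnoc-low cells. It differed by -2.05, with -0.88 in the Htr3a line and -3.23 in the Sst line. The part of oligodendrocyte RNA in the results was not tested. Astrocyte genes summed to a median of 116 CPM (0.204 to 1495) in Pnoc-positive cells and 98.1 CPM (0.239 to 1049) in Pnoc-low cells. Genes of glutamatergic neurons summed to medians of 41.8 CPM (0 to 211) in Pnoc-positive cells and 40.2 CPM (0 to 258) in Pnoc-low cells. Slc17a7, the vesicular glutamate transporter gene that defines those neurons, was read in 1 Pnoc-positive and 1 Pnoc-low cell, and Spink8 in no cell. No gene of these 3 lists was counted in both lines. Vascular genes stayed at or under 84.2 CPM in Pnoc-positive cells and 42.9 CPM in Pnoc-low cells, while the median sum of blood genes was 0.0259 CPM (0 to 12083) in Pnoc-positive cells and 0 CPM (0 to 211) in Pnoc-low cells. At least 100 CPM of blood genes was present in 3 of 24 Pnoc-positive and 2 of 22 Pnoc-low cells.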

How the data were processed

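Single OLM cells of the Htr3a-Cre and Sst-Cre lines gave 46 libraries. The authors deposited raw read counts per gene, by symbol (22800 genes, the table used) and by Ensembl identifier (22880). Per the submitters' processing notes the tools were Trimmomatic, STAR and featureCounts, and the build was GRCm38. The sources used here give no versions, annotation or strand setting. A normalized table, also deposited by the authors, holds linear signal values. Dividing each cell's counts by a single factor gave 100% of its values above 0 to within 0.1%. No 2 libraries were identical among 1035 pairs, and no molecular identifiers are named, so counts include amplified copies.

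Counts were scaled to 1000000 per cell (CPM) and compared as mean log2(CPM + 1), Pnoc-positive minus Pnoc-low. For sparse genes this difference can be larger or smaller in size than the log2 ratio of summed CPM. The difference and the ratio were 2.45 and 0.39 for Mia3, and -2.83 and -3.99 for Cbln4. Total reads per cell ranged from 3391829 to 31386369. Members, lists and limits were chosen with earlier results of these data known. The genes named are the members of 3 lists (OLM identity, nociceptin and opioid system, hippocampal somatostatin subgroups), the 12 highest and 12 lowest by the smaller line difference whose summed CPM goes the same way (predicted names, pseudogenes, Xist and Y genes left out), and up to 3 members of each other list read in 12 cells or more. A few genes of this rule are not reported here, and some counted list members were named after their values were seen. Python 3.11.15, numpy 2.4.6, pandas 2.3.3 and scipy 1.17.1 were used, with R 4.3.3, edgeR 4.0.16 (TMMwsp) and DESeq2 1.42.0 (poscounts) for alternative size factors only. Coordinates are from GENCODE M21 (GRCm38), which held 127 of 127 genes looked up, 2 of them by a RefSeq synonym.

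On simulated counts of 22800 genes for this comparison, 93 of 100 genes raised 4-fold had the right direction and 50 were counted in both lines, with a median difference of 1.56. Of 100 genes lowered to 0.25-fold, 93 had the right direction and 39 were counted, with a median of -1.42. The levels of each gene were shuffled among the cells on their own, which removes traits of a cell shared by many genes. The changed genes were drawn from those above a minimum mean level. Unchanged genes were not tallied, so the simulation does not say how many genes are counted without a true difference.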

Additional observations from a re-analysis of the deposited data

How the results depend on the processing

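The count of genes higher in both lines (588) was 325 with Pnoc-positive set at 50 CPM, 61 with a pseudocount of 10 and 296 with genes detected and driver line as covariates. It was 382 in cells with 4000 to 9000 genes detected and 1046 in cells with under 1000 CPM of microglial genes, both chosen after seeing the data. The count lower in both lines (187) was 25 with the pseudocount of 10, 406 with the covariates and 377 in cells with 4000 to 9000 genes. The median difference over all genes (0.21) was -0.056 with the covariates. The causes were not tested, except that a larger pseudocount shrinks differences of sparse genes by construction. Leaving out 1 cell at a time gave 460 (without Htr3a-line replicate 6) to 729 (without Htr3a-line replicate 20) genes higher in both lines, 232 to 155 genes lower in both lines for the same cells, a median difference over all genes of 0.14 to 0.30, a difference in genes detected of 424 to 608 and a driver-line mix of 39.1 to 43.5% Sst-line cells on the Pnoc-positive side. Of the 588 higher genes, 292 were shared with the covariate fit and 189 with the threshold of 50 CPM, and of the 187 lower genes 184 and 70 were shared.

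Of the 12 highest and 12 lowest genes, no call was lost on leaving out any 1 cell. Having been picked as the largest differences in the same cells, they could hardly lose it, so this is a description only. With the pseudocount of 10, Cacnb2, Calb1, Rgs8, Cacna1g, Stx1a, Nlgn3, Atf3, Csf1r and Cnr1 were not counted. Differences over both lines kept their sign for every counted gene named in the report under each of 14 alternatives that gave a value (Syt4 was not run), and Npy ranged from -6.97 to -3.85. Size factors from edgeR and DESeq2, the deposited normalized values, thinning and the Ensembl table left both counts within 1.5 times, and so did no minimum or 23 cells as the minimum number with reads. No paired analysis was possible because the sides are different cells and the labels name no animal. With 1 cell per library and missed transcripts common, a level of 0 in a cell is not absence of the transcript.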

Other observations

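A pattern between Npas1 and Cbln4 was noticed after the values were seen and was not tested. The 8 cells with no Npas1 read, 1 Pnoc-positive and 7 Pnoc-low, 3 of the Htr3a line and 5 of the Sst line, were the 8 cells with the highest Cbln4, at 254 to 1308 CPM. The highest Cbln4 level in the 38 cells with Npas1 reads was 136 CPM, and 29 of these had no Cbln4 read. Npy in the 8 cells lay between 1195 and 11796 CPM with a median of 3664 CPM. The Pnoc-positive cell among them was Sst-line replicate 14, the cell with 10637 CPM of Npy and 146 CPM of Pnoc. These 8 cells had 5639490 to 22689768 assigned reads and 3350 to 8725 genes detected. Npas1 had 10.3 to 1109 CPM where it was read.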
